A study of Mus musculus with 4 samples.

Results

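mmu-miR-103-3p and mmu-miR-107-3p (miR-103-3p and miR-107-3p from here on) were examined among the RISC-bound short RNAs (R-sRNAs) of mouse brain. Their members were the rows of the sequence table that carry either name, 171 sequences for miR-103-3p and 216 for miR-107-3p. These were 387 of the 85704 sequences and 2 of the 1029 named miRNAs. The samples were cortex and hippocampus of BL6 mice, the C57BL/6J strain by the study's methods, with 2 libraries from mice of 2 months and 2 from mice of 18 months. No transgene and no treatment is given for these mice, and the only labelled difference between the groups was age. Ago proteins were pulled from the lysate with a peptide of GW182, their natural partner in the RNA-induced silencing complex (RISC), and the RNA that came with them was sequenced after a gel selection given as 19-35 nt. The table holds sequences of 15 to 33 bases. Each level is therefore an amount bound to Ago, given in CPM, the reads per 1000000 reads of a library. The labels do not say whether the 2 libraries of an age came from separate mice, so p-values measure the spread between these libraries, which may be technical.

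A miRNA is cut from a hairpin, is loaded into Ago and guides it to mRNAs, mainly through the seed near its 5′ end. miR-103 and miR-107 form a family of vertebrate miRNAs that sit in introns of the pantothenate kinase (Pank) genes, whose enzymes begin the synthesis of coenzyme A. They are known for targeting Dicer and caveolin-1, for effects on insulin sensitivity and, in brain, for targeting Bace1, the β-secretase that cuts the amyloid precursor protein. All 3 mouse hairpins were found in RefSeq on build GRCm38.p6, which may differ from the build behind the table, and none overlapped an exon of its host gene. Mir103-1 lay at chr11:35782396-35782481 on the plus strand in intron 5 of Pank3. Mir103-2 lay at chr2:131288052-131288137 on the plus strand in intron 5 of the Pank2 transcript with 7 exons. Mir107 lay at chr19:34820687-34820773 on the minus strand in intron 5 of both Pank1 transcripts with 7 exons. The hairpins are shown because reads matched both mature arms of each, with the 5p arm and then the 3p arm in capitals:
Mir103-1: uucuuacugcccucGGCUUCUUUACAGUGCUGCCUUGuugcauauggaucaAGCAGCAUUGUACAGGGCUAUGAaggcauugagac
Mir103-2: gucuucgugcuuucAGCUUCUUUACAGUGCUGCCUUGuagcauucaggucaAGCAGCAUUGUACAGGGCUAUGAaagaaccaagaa
Mir107: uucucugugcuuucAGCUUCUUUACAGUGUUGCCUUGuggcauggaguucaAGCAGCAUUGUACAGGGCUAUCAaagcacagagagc

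The 3p arms carry the same seed (bases 2 to 8, in capitals), so both miRNAs address targets with the same bases:
miR-103-3p: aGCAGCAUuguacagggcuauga
miR-107-3p: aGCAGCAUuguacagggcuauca
The 23-base sequences differed at 1 position, G22C, counted from the 5′ end of miR-103-3p. That base, in capitals here, is what a read must reach to be told apart:
miR-103-3p: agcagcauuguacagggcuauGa
miR-107-3p: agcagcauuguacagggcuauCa
The 3p arm of Mir103-1 and that of Mir103-2 are identical, so a read of miR-103-3p cannot be placed at 1 of these hairpins. On either side of the 3p arm the 3 hairpins share the 3 bases before it and 1 base, an A, after it. A read from the reference start that ends at base 21 or earlier therefore fits all 3 hairpins.

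The libraries rested on 9067007 to 11388999 reads, which were recovered from the CPM values because 100% of them were whole multiples of the worth of 1 read (within 0.02 read). A count of 3 reads was worth 0.263 to 0.331 CPM. The neuronal miRNAs miR-124-3p, miR-9-5p, miR-128-3p and miR-138-5p summed to between 178482 and 208820 CPM in every library, so the markers of the labelled tissue were present. The liver miRNA miR-122-5p and the skeletal muscle miRNA miR-206-3p stayed under 10 CPM.

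miR-103-3p was the more abundant member, at rank 45 of the 1029 miRNAs by mean CPM. It stood at 7574 and 4876 CPM at 2 months, against 4205 and 5792 CPM at 18 months. miR-107-3p ranked 59, at 4230 and 1771 CPM at 2 months, against 2226 and 3505 CPM at 18 months. For both miRNAs, replicate 1 of 2 months was the highest of the 4 libraries, and the values of the ages overlapped. Together they made up between 0.643% and 1.18% of all reads. In the order of mean levels miR-103-3p lay between miR-434-3p (5772 CPM) and miR-23a-3p (5484 CPM). Its libraries spread from 4205 to 7574 CPM and covered every library of both neighbours, so the 3 levels did not differ beyond their spread. miR-107-3p lay between miR-200c-3p (3177 CPM) and miR-487b-3p (2887 CPM), whose libraries also overlapped with its own.

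The sequences behind these names showed that the name alone does not separate the pair. A choice of R-sRNAs, the leading ones and the forms described later, is printed next, as read (T for U), with the base at position 22 in capitals. They are shown because the named total of miR-107-3p depends on how the reads without G or C there were named. These carried the name miR-103-3p:
full length with G, 3554 CPM: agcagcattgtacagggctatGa
ending at G, 1039 CPM: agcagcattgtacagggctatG
G with an added U, 657 CPM: agcagcattgtacagggctatGt
starting at base 2, 37.8 CPM: gcagcattgtacagggctatGa
starting at base 3, 25.9 CPM: cagcattgtacagggctatGa
and these carried the name miR-107-3p:
ending before position 22, 1177 CPM: agcagcattgtacagggctat
full length with C, 633 CPM: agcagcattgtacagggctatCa
ending at C, 491 CPM: agcagcattgtacagggctatC
C with an added U, 139 CPM: agcagcattgtacagggctatCt
U at position 22, 109 CPM: agcagcattgtacagggctatT
A at position 22, 71.0 CPM: agcagcattgtacagggctatA
The values are means over the 4 libraries. The most abundant sequence named miR-107-3p was the 21-base read, 40.1% of the named total, which is identical in both miRNAs.

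Reads with G at position 22 came to 7595 and 4894 CPM at 2 months, against 4220 and 5808 CPM at 18 months. Reads with C there came to 2026 and 835 CPM at 2 months, against 1116 and 1434 CPM at 18 months. A further 54 sequences ended before position 22, at 1842 and 707 CPM at 2 months, against 862 and 1780 CPM at 18 months. The remaining 52 sequences had A or U at that position, at 213 to 340 CPM, and match neither miRNA there. All 106 sequences of these last groups carried the name miR-107-3p and none the name miR-103-3p. They held 49.2% to 58.6% of the reads named miR-107-3p, while C was present in 40.9% to 50.1%. Of the reads named miR-103-3p, at least 99.96% had G at position 22. The table has another annotation column that gives a hairpin for each sequence, of which only the first entry was used. It placed none of these 106 sequences at Mir107, and it placed the most abundant of them at Mir103-1. The name and this entry thus put the same leading reads with different members.

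**Figure D1:**
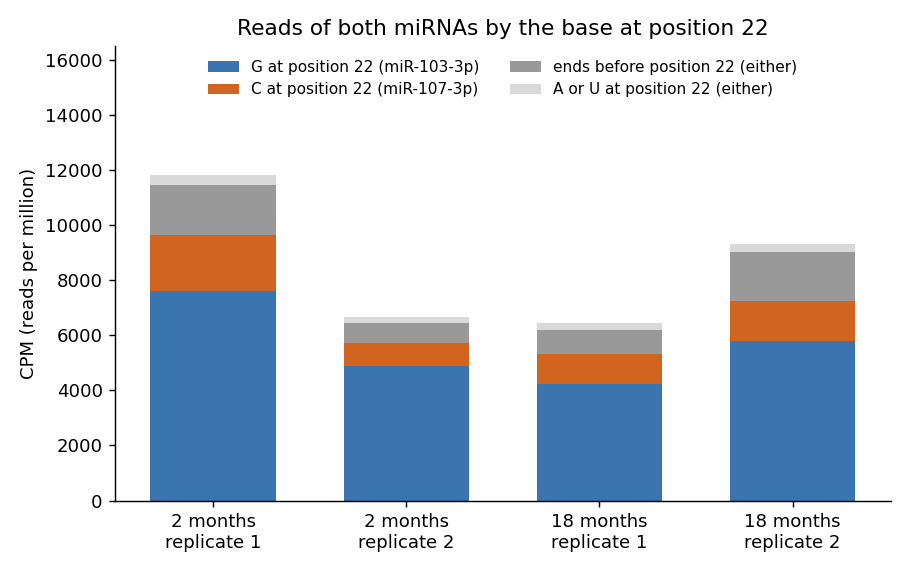
CPM of both miRNAs in each library (bars from 0, 1 bar a library, no error bars), stacked by the base at position 22. The reads that end before position 22 or have A or U there came to 920 to 2182 CPM, against 835 to 2026 CPM for the reads with C.

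How the ambiguous reads are taken set the share of miR-107-3p in the pair. By the name in the table, the share was 35.8% and 26.6% at 2 months, against 34.6% and 37.7% at 18 months. Of the reads with G or C at position 22, C was present in 21.1% and 14.6% at 2 months, against 20.9% and 19.8% at 18 months. By the hairpin annotation the share was 17.1% and 12.5% at 2 months, against 17.3% and 15.4% at 18 months. The 95% Wilson intervals of these shares, which cover counting error only, spanned less than 1 percentage point. In the library with the highest share of ambiguous reads, replicate 2 of 18 months (22.1%), the share could lie anywhere between 15.4% (reads with C alone) and 37.5% (all reads without G). G reads outnumbered C reads in 4 of 4 libraries. In all 3 ways of assigning the reads, replicate 2 of 2 months had the lowest share and the ages overlapped. The difference between the ages (18 minus 2 months) was 4.91 percentage points by name (two-sided exact permutation p = 0.667) and 2.55 points by base (exact permutation p = 1.0). With 2 libraries against 2 this test cannot go below 0.33.

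**Figure D2:**
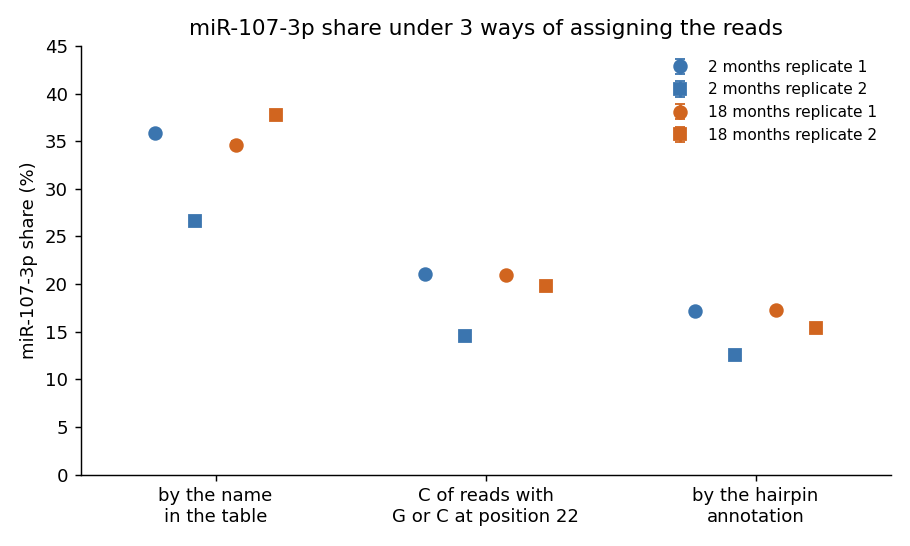
Share of miR-107-3p in the reads of both miRNAs (%, from 0), by library and by 3 ways of assigning reads. Bars are 95% Wilson intervals, smaller than the points. The shares by name lie between 26.6% and 37.7%, and those by base between 14.6% and 21.1%.

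Neither member passed the test of a difference between the ages in the fit over 456 miRNAs (limma with a trend, log2(CPM + 1), mean of at least 10 CPM). At an unadjusted p under 0.05 this fit called 74 miRNAs, 16.2% of those tested, and 0 of the 2 members were among them. miR-103-3p changed by -0.30 on the log2 scale (18 minus 2 months, SE 0.30, 95% interval -1.02 to 0.42, limma adjusted p = 0.582). miR-107-3p gave 0.03 (SE 0.45, 95% interval -1.05 to 1.11, limma adjusted p = 0.975). Taken by the base at position 22, miR-107-3p gave -0.04 (SE 0.42, limma adjusted p = 0.964), so its sign depended on the assignment. Both miRNAs summed as 1 gave -0.20 (SE 0.34, limma adjusted p = 0.775). These intervals leave room for a fall or a rise of miR-107-3p by a log2 value of 1, so a difference of that size was not detectable with 2 libraries per age. The median change of all 456 miRNAs was -0.22 in CPM and -0.01 after rescaling the libraries by the median of ratios, which turned the calls from 19 higher and 55 lower into 39 higher and 25 lower. After this rescaling miR-103-3p gave -0.09 and miR-107-3p 0.24.

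**Figure D3:**
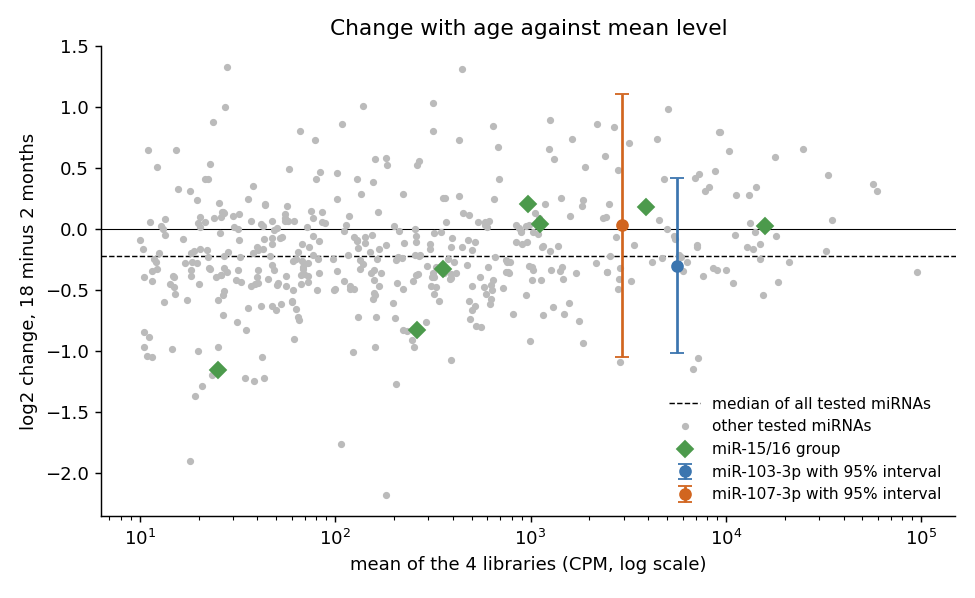
Log2 change with age (18 minus 2 months) against mean CPM (log axis) for the 456 tested miRNAs. Bars are the 95% limma intervals of miR-103-3p (-1.02 to 0.42) and miR-107-3p (-1.05 to 1.11), which both cross 0 and the median of all miRNAs, -0.22 (dashed).

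The spread between libraries of the same age was wide for miR-107-3p. Its 2 libraries at 2 months differed by 1.26 on the log2 scale (2.39-fold), and only 12 of the 456 miRNAs, 2.63%, differed by more. At 18 months they differed by 0.65 on that scale, and 14.7% of the miRNAs differed by more. For miR-103-3p the differences were 0.64 at 2 months and 0.46 at 18 months, against medians over all tested miRNAs of 0.26 and 0.27. Without replicate 1 of 2 months the change of miR-103-3p went from -0.30 to 0.02 and that of miR-107-3p from 0.03 to 0.66. Without replicate 2 of 2 months that of miR-107-3p went to -0.60, and without replicate 2 of 18 months to -0.30, all with limma adjusted p of 0.475 or more.

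The same age comparison was made for single sequences. Of the 387 member sequences, 79 had a mean of at least 1 CPM and entered the fit over 14287 sequences, and they held 98.9% of the members' reads. Of all sequences tested, 10.1% had an unadjusted p under 0.05, and of the member sequences 3 did, all of them named miR-103-3p and all lower at 18 months. None of the 79 passed after Benjamini-Hochberg adjustment (lowest limma adjusted p = 0.45). Without replicate 1 of 18 months 0 of them were under the unadjusted threshold, and without any 1 of the other libraries 5 to 7 were. The most abundant of the 3 was the read with G and 2 added U, at 15.5 and 20.02 CPM at 2 months, against 9.08 and 10.2 CPM at 18 months (log2 change -0.81, SE 0.32, limma adjusted p = 0.45). Its libraries did not overlap between the ages. The other 2, read from base 4 and with an added UAU, had means of 6.19 and 1.17 CPM and were named after their values were seen. The full-length miR-103-3p read stood at 5317 and 2769 CPM at 2 months, against 2691 and 3440 CPM at 18 months, and the ages overlapped. The 22-base form of miR-103-3p was lower in both libraries of 18 months (814 and 1078 CPM) than in those of 2 months (1129 and 1136 CPM), with a log2 change of -0.27 (SE 0.27, limma adjusted p = 0.763).

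The 3′ ends lay apart between the miRNAs in every library where the base at position 22 told them apart. Reads that ended at that base made up 37.7%, 46.6%, 35.2% and 33.5% of the reads with C (replicates 1 and 2 of 2 months, then of 18 months). In the same order they made up 15.3%, 23.8%, 19.8% and 19.2% of the reads with G. The share was higher in miR-107-3p in 4 of 4 libraries, by 18.7 ± 4.50 percentage points (SD, n = 4, two-sided exact paired permutation p = 0.125, the smallest that 4 pairs allow, so this design cannot reach 0.05). Reads that ended at base 23 without an added base, from any start, went the other way, at 47.2% ± 7.23 of the C reads and 64.7% ± 5.94 of the G reads (SD, n = 4), and were the lower in miR-107-3p in 4 of 4 libraries (exact permutation p = 0.125). Ends at base 22 and at base 23 are shares of the same reads, so a higher share of 1 leaves less for the other. The contrasts are therefore not independent. Base 23 is an A in every hairpin, so a templated A and an added A cannot be told apart there. Reads that end before position 22 have no place in these shares, although they belong to 1 of the miRNAs.

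On reads with G or C at position 22, bases that do not match the hairpin at the 3′ end were mostly a single U, the base that terminal uridylyl transferases add to small RNAs. A U accounted for 93.9% of the additions found on G reads and 90.8% on C reads. Base 23 and the base after it are A in every hairpin. An A added after base 22 or 23 of these reads therefore counted as templated and is missing from the additions. Their make-up thus cannot be compared with that on reads with neither base. On reads with neither base a single U made up 40.2% of the additions, a single A 28.2%, AA 9.22% and AU 7.38%. Added bases that could be found in this way made up 12.7% to 17.9% of the members' reads, with 15.3% ± 3.72 at 2 months and 16.1% ± 0.952 at 18 months (SD, n = 2 each, exact permutation p = 1.0). A U directly after position 22 was present in 8.62%, 13.7%, 11.1% and 15.4% of the G reads and in 9.50%, 12.4%, 13.0% and 9.01% of the C reads. C was the higher in 2 of 4 libraries, with a difference of -1.23 ± 3.65 points (SD, n = 4, exact permutation p = 0.75). These shares are of all reads with that base, and more C reads ended at base 22 without an added base (38.25% against 19.51%). They therefore do not compare U addition per read ending there. A U added after base 23 was rarer, at 1.57% ± 0.413 of the C reads and 2.02% ± 0.399 of the G reads (SD, n = 4). Its share was the lower in miR-107-3p in 4 of 4 libraries (exact permutation p = 0.125). Fewer C than G reads ended at base 23 without an added base (47.2% against 64.7%). The share of a U among reads ending there was not computed, so a lower rate of U addition is not shown.

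**Figure D4:**
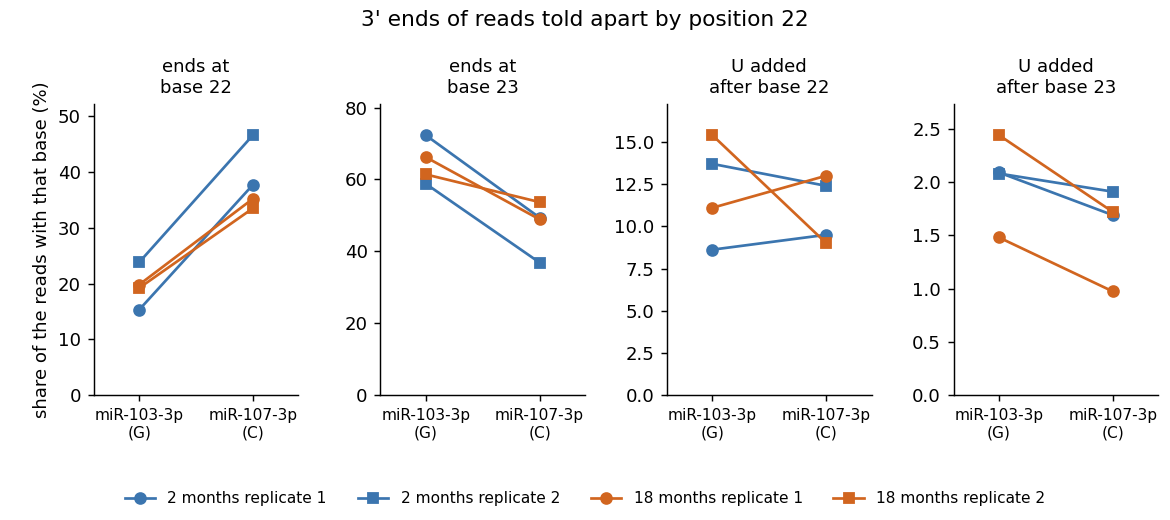
Shares of 3′ end forms (%, axes from 0, a separate scale in each panel) among reads with G (miR-103-3p) and C (miR-107-3p) at position 22, each line 1 library. Ends at base 22 rise and ends at base 23 fall from miR-103-3p to miR-107-3p in 4 of 4 libraries, while the lines for a U added after base 22 cross.

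The length profiles reflected these ends and the naming. Of the reads named miR-103-3p, 75.2% had 23 bases and 19.9% had 22 bases, as means over the libraries. Of those named miR-107-3p, 40.0% had 21 bases, 25.1% had 22 and 29.7% had 23. Among 389 tested miRNAs with a reference sequence that could be placed, the median share of reads whose last base lay at the position of the reference 3′ end, whether or not that base matched, was 44.2%. It was 77.6% for miR-103-3p, rank 33, and 30.5% for miR-107-3p, rank 262, both by name. All reads that ended before position 22 were named miR-107-3p, so both ranks depend on the naming.

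The 5′ start sets the seed, and it was kept in almost all reads. The reference start was used by 97.6% of the reads named miR-103-3p and by 97.9% of those named miR-107-3p, against a median of 96.8% over the 389 miRNAs. The 6mer seed of the table (bases 2 to 7) was GCAGCA in 97.3% to 97.5% of the members' reads. Its viability, the mean survival of 3 mouse cell lines that were given a short duplex with that seed, was 42.4% of the control, and a lower value means a more toxic seed. The members' reads carried 52 seeds in all, and those other than GCAGCA had shares of 2.57% ± 0.0821 at 2 months and 2.58% ± 0.174 at 18 months (SD, n = 2 each, exact permutation p = 1.0). A start at base 2 gave the seed CAGCAU (viability 62.7%) in 0.985% to 1.31% of the reads. A start at base 3 gave AGCAUU (70.9%) in 0.356% to 0.626%. A start 1 base early gave AGCAGC (37.8%), the seed of the miR-15/16 group, in 0.213% to 0.283%. Weighted by reads, the mean viability of the members was 42.8% to 42.9% in every library.

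Starts at base 2 and at base 3 had different shares in the miRNAs in every library. A start at base 2 was used by 1.82%, 2.19%, 1.77% and 1.82% of the C reads and by 0.985%, 0.793%, 1.20% and 1.07% of the G reads. The C reads were the higher in 4 of 4 libraries, by 0.886 ± 0.357 points (SD, n = 4, exact permutation p = 0.125). A start at base 3 was used by 0.155% ± 0.0344 of the C reads and 0.606% ± 0.130 of the G reads (SD, n = 4). The G reads were the higher in 4 of 4 libraries (exact permutation p = 0.125). These C shares rested on only 15 to 38 reads a library. The start 1 base early was used by 0.222% of the C reads and 0.246% of the G reads, the C reads being the higher in 1 of 4 libraries, with a difference of -0.0240 ± 0.0624 points (SD, n = 4, exact permutation p = 0.5). Reads without the usual seed made up 2.59% to 2.67% of the G reads at 2 months and 2.74% to 2.84% at 18 months, which did not overlap (exact permutation p = 0.33, the smallest possible). The C reads did not overlap either and lay the other way, at 2.77% and 3.20% at 2 months, against 2.71% and 2.62% at 18 months (exact permutation p = 0.33).

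**Figure D5:**
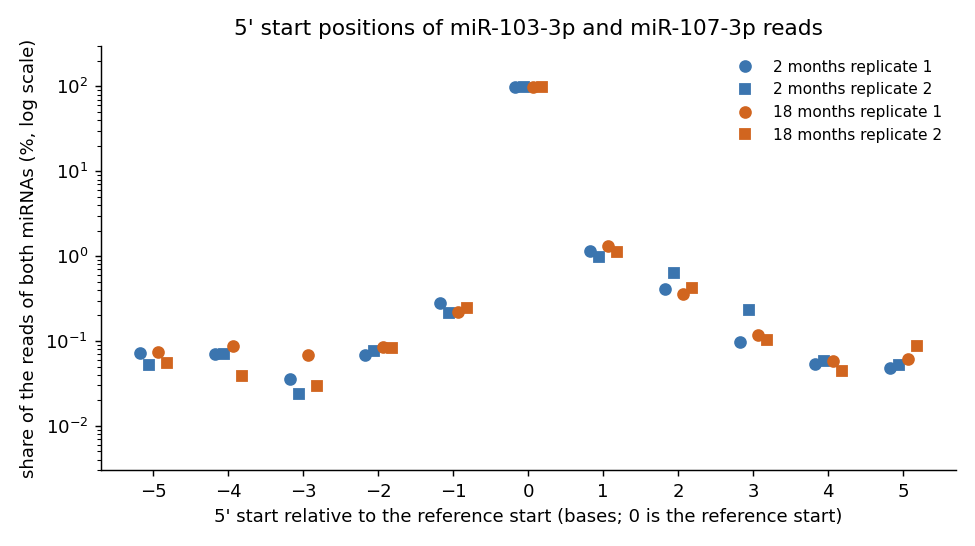
Share of the members' reads (%, log axis) by 5′ start relative to the reference start, each point 1 library. The reference start (0) holds 97.6% to 97.8%, and the start 1 base downstream 0.985% to 1.31%.

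miR-103-3p and miR-107-3p were the main source of their seed in the RISC. Reads with GCAGCA made up 0.655% to 1.18% of a library, and 95.5% to 97.4% of them came from the pair. The next named source was miR-16-5p at 133 CPM, whose usual seed AGCAGC is the same stretch shifted by 1 base, followed by miR-497a-5p at 22.5 CPM and miR-15a-5p at 18.9 CPM. In the other direction, 21.1 CPM of member reads carried AGCAGC, 0.0947% of the 22224 CPM with that seed in the table. Reads with a seed less viable than GCAGCA made up 14.0% and 14.2% of all reads at 2 months, against 12.2% and 11.8% at 18 months.

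The miR-15/16 group targets overlapping sites and is known for restraining the cell cycle. Of the 12 miRNAs listed for it, 8 had reads, 7 were tested and 2 had an unadjusted p under 0.05, both lower at 18 months (16.2% of all tested miRNAs were under it). Their median log2 change was 0.03, against -0.22 over all tested miRNAs. The first was miR-322-5p, at 323 and 349 CPM at 2 months, against 162 and 219 CPM at 18 months (log2 change -0.83, SE 0.23, limma adjusted p = 0.229). The other was miR-503-5p, made from the same cluster, at 34.0 and 34.2 CPM at 2 months, against 9.74 and 22.1 CPM at 18 months (log2 change -1.16, SE 0.40, limma adjusted p = 0.266). Neither passed after adjustment. miR-16-5p, at 14524 to 17480 CPM the most abundant of the group, gave 0.03 (SE 0.21), and miR-15a-5p gave 0.18 (SE 0.27), with limma adjusted p of 0.956 and 0.737.

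The 5p arms of the hairpins were rare in the RISC. miR-103-1-5p stood at 2.86 and 3.16 CPM at 2 months, against 0.757 and 1.99 CPM at 18 months. miR-103-2-5p stood at 6.68 and 9.75 CPM and then at 3.21 and 9.60 CPM, and miR-107-5p at 8.30 and 15.2 CPM and then at 3.79 and 10.6 CPM. All 3 were highest in replicate 2 of 2 months and lowest in replicate 1 of 18 months, and none reached the mean of 10 CPM needed for the fit. The 5p arms differ from each other by 1 or 2 bases (positions from the 5′ end). These are A1G between miR-103-2-5p and miR-103-1-5p and C16U between miR-103-2-5p and miR-107-5p. A 5p read can be named for 1 hairpin only where it covers these bases, which was not checked. The 3p reads outnumbered the 5p reads 662-fold and 237-fold at 2 months and 829-fold and 419-fold at 18 months. The 5p arms made up 0.151% (95% Wilson interval 0.131% to 0.174%) and 0.421% (0.377% to 0.469%) of the arm reads at 2 months, and 0.120% (0.0971% to 0.149%) and 0.238% (0.207% to 0.273%) at 18 months.

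Over the 4 libraries, the profile most like that of miR-103-3p was that of miR-1264-3p, at a Euclidean distance of 0.147 between centred log2 values, against a median distance of 0.73. It was followed by miR-674-3p (0.172), miR-15b-5p (0.185), miR-592-5p (0.247) and miR-1298-3p (0.259). For miR-107-3p the nearest were miR-221-5p (0.207), miR-544-5p (0.307), miR-9-5p (0.363), miR-34a-5p (0.416) and miR-450a-5p (0.445), against a median of 1.10. miR-9-5p, a neuronal miRNA, stood at 42830 and 25548 CPM at 2 months, against 27655 and 43876 CPM at 18 months. At a distance of 0.565, miR-107-3p was place 118 in likeness to miR-103-3p and miR-103-3p was place 12 in likeness to miR-107-3p, although the ambiguous reads of both are in its named total. With 4 points each, these distances only describe the libraries.

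Marker miRNAs of other cell types also differed between the libraries. The endothelial miR-126a-3p stood at 9242 and 8854 CPM at 2 months, against 2557 and 6489 CPM at 18 months. Its log2 change was -1.15 (SE 0.43, limma unadjusted p = 0.0345, adjusted p = 0.266). It was the only 1 of the 14 tested markers under the unadjusted threshold. The other arm of its hairpin, miR-126a-5p, was not among the listed markers. At a mean of 2746 CPM, that arm gave a log2 change of -0.07 (limma adjusted p = 0.901). All listed markers had reads, and their sums ranged over the libraries from 4119 to 6565 CPM for oligodendrocytes (2 miRNAs), from 4916 to 6560 CPM for smooth muscle (2), from 1698 to 3374 CPM for red blood cells (2) and from 2638 to 3357 CPM for immune cells (3). Replicate 1 of 18 months had the lowest sums for endothelium (miR-126a-3p alone), oligodendrocytes, red blood cells and immune cells, and also the lowest miR-103-3p. Of their markers, miR-126a-3p, miR-338-3p, miR-144-3p, miR-142a-3p and miR-150-5p were lowest there. miR-219a-2-3p (oligodendrocytes) stood at 886.7 CPM there, against 789.4 to 885.6 CPM in the other libraries. miR-451a (red blood cells) and miR-223-3p (immune cells) were lowest in replicate 1 of 2 months, at 878.4 and 49.69 CPM. The sums for neurons and smooth muscle were lowest in replicate 2 of 18 months (178482 and 4916 CPM). miR-107-3p was lowest in another library, replicate 2 of 2 months, at 1771 CPM. The sums for neurons, smooth muscle, red blood cells (3374 CPM) and immune cells (3357 CPM) were highest in that library. Those for endothelium and oligodendrocytes were neither highest nor lowest in it. The part of cell composition in the members' levels was not tested, and in tissue samples fewer cells of a type and less of an RNA per cell cannot be told apart.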

How the data were processed

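Small RNAs bound to Ago were sequenced in 4 libraries, assigned to age and replicate by their labels. Before depositing CPM for each sequence, the authors trimmed the reads, dropped the rare ones and used BLAST against lists of mouse small RNAs. The submitters' processing notes name Trim Galore; versions are not given in the sources used here. The deposited seed viability is a score, the mean of 3 mouse cell lines in percent. No sequence in the table has fewer than 4 reads in all.

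CPM was summed by name. Whole reads were recovered at 9067007 to 11388999 per library. limma 3.58.1 was fitted to log2(CPM + 1) with age as the only covariate, for miRNAs averaging 10 CPM or more and sequences averaging 1 CPM or more. The fit was tested on simulated counts. Scaling these by column sums that move with the changed miRNAs shifted the unchanged ones and raised their calls, which scaling by known totals did not, so calls in CPM depend on composition. Shares were compared by two-sided exact permutation tests. Reads were aligned to the RefSeq hairpins, and bases from the first mismatch at position 18 or later, at most 4, were taken as added. edgeR 4.0.16 and DESeq2 1.42.0 on the recovered reads were alternatives (R 4.3.3, Python 3.11.15, SciPy 1.17.1).

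The members and lists were chosen with earlier results of these data known. Named were the members, the other arms of their hairpins, the miR-15/16 group, the neighbours in mean CPM, the 5 nearest profiles, and the member sequences with the 10 highest means, the main sequence of each start with 1% of reads, and those with an unadjusted p under 0.05 and a mean of at least 100 CPM.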

Additional observations from a re-analysis of the deposited data

Results flagged for a closer look

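Sequences without a miRNA name were also placed at these hairpins by the other annotation column and lie outside the named totals. These were 232 sequences of 15 to 24 bases, with a mean of 119 CPM at 2 months (149 and 89.9 CPM) and of 111 CPM at 18 months (91.1 and 130 CPM). Of these, 26 sequences had 15 to 17 bases, at 17.04 to 29.2 CPM, while the shortest sequence with a name in the table had 18 bases. The values of the ages overlapped, and the named totals of the report leave these reads out.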

How the results depend on the processing

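Beside the leave-one-out values, the change of miR-103-3p stayed negative in all 12 alternatives, between -0.30 and -0.09. The replicate block, the filters and the trend setting cannot move this estimate in a balanced design, and both pseudocounts left it at -0.30. With both miRNAs as 1 the value is not of miR-103-3p alone. The alternatives that rescale the libraries brought it to -0.09 (median of ratios), -0.09 (edgeR) and -0.10 (DESeq2). The change of miR-107-3p ran from -0.20 to 0.24. It turned negative with reads taken by base (-0.0397), by the hairpin column (-0.0405) and with both miRNAs as 1 (-0.20). The last 2 alternatives were chosen after seeing the data. No alternative gave either miRNA an adjusted p under 0.05 (lowest 0.459). Leaving out each library moved miR-103-3p from -0.62 to 0.017 and miR-107-3p from -0.60 to 0.66. A library left alone in its group is then assumed to vary like the other group. The 74 miRNAs called became 125 with no filter, 43 at 100 CPM and 1 after adjustment, and 53 to 77 without 1 library. After adjustment edgeR called 0 miRNAs (62 unadjusted) and DESeq2 19 (69 unadjusted). The 3 member sequences called became 1 at 10 CPM, 7 with no filter, 1 after rescaling, 0 after adjustment and 0 to 7 without 1 library. The age difference in the miR-107-3p share stayed positive (0.320 to 9.51 points without 1 library), as did that in reads ending before position 22 (0.281 to 6.03). Those in reads without the usual seed (-0.117 to 0.128) and with added bases (-1.82 to 3.44) took both signs. The cause of these shifts was not tested. The difference between C and G reads ending at base 22 was 17.4 to 20.2 points without 1 library and at base 23 -20.7 to -15.7. A fit that adds the replicate number as a block called 79 miRNAs and 2 member sequences. Same-numbered libraries share only a number, with a correlation of deviations of 0.18. Sequences and arms with few reads carry a large counting error as well.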
